A study of Mus musculus with 4 samples.

Results

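The AP-1 and early growth response genes were followed in the poly(A) RNA of sorted mouse mammary tumor cells, as the 10 rows of the count table named Fos, Fosb, Fosl1, Fosl2, Jun, Junb, Jund, Atf3, Egr1 and Egr2, out of 54532 genes. All 10 were found once each and all 10 passed the filter on low counts, which 15993 genes passed. The irradiated group held 2 libraries of primary breast tumors given targeted radiation, with 30 d in their titles, without saying from when the 30 days count. The unirradiated group held 2 libraries of such tumors with no radiation. Both groups were C57BL/6 mice with MMTV-PyMT tumors, in which a viral promoter active in mammary epithelium drives the polyoma middle T oncogene, and both carried an mCherry reporter of Dll1, a Notch ligand. Tumors were digested with collagenase and hyaluronidase, enriched for tumor cells by a sort with CD45, CD31 and TER119 antibodies (leukocyte, endothelial and erythroid antigens), and sorted again for mCherry-positive cells. Nothing in the labels ties a library to an animal of its own, so p-values measure the spread between these libraries only, which may be technical.

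AP-1 is a family of dimeric transcription factors built from a Jun protein and a partner of the Fos, Jun or ATF families, joined through leucine zippers. Jun proteins can pair with each other, whereas Fos proteins need a Jun partner to bind DNA. Most of these genes, and the zinc finger genes Egr1 and Egr2, are immediate early genes, which are transcribed within minutes of growth factor, stress or injury signals without new protein synthesis, and whose RNA is short-lived. Fosl1 and Fosl2 usually follow later, and Jund is expressed more steadily. Enzymatic dissociation of tissue is itself known to raise many of these transcripts.

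The 10 genes together took 5.19% and 3.82% of all counts in the irradiated libraries, against 4.56% and 4.53% in the unirradiated ones. Irradiated 1 thus lay above both unirradiated libraries and irradiated 2 below both. Most of the share came from Fos, Fosb, Jun and Egr1, which held 4.19% and 2.96% of counts in irradiated libraries, against 3.57% and 3.59% in unirradiated ones. Fos had the most counts of any gene in both unirradiated libraries and was second in both irradiated ones, where Fosb led in irradiated 1 and the mitochondrial gene mt-Co1 in irradiated 2. Of the 25 genes with the most counts in a library, 6 were Fos, Fosb, Jun, Egr1, Junb and Atf3, in each of the 4 libraries. Hspa1b, an inducible heat shock gene, was the next neighbor of the leading members, at 10917 and 8163 CPM in irradiated libraries and 9600 and 10158 CPM in unirradiated ones. CPM are counts relative to library size, scaled by the trimmed mean of M values (TMM).

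**Figure D1:**
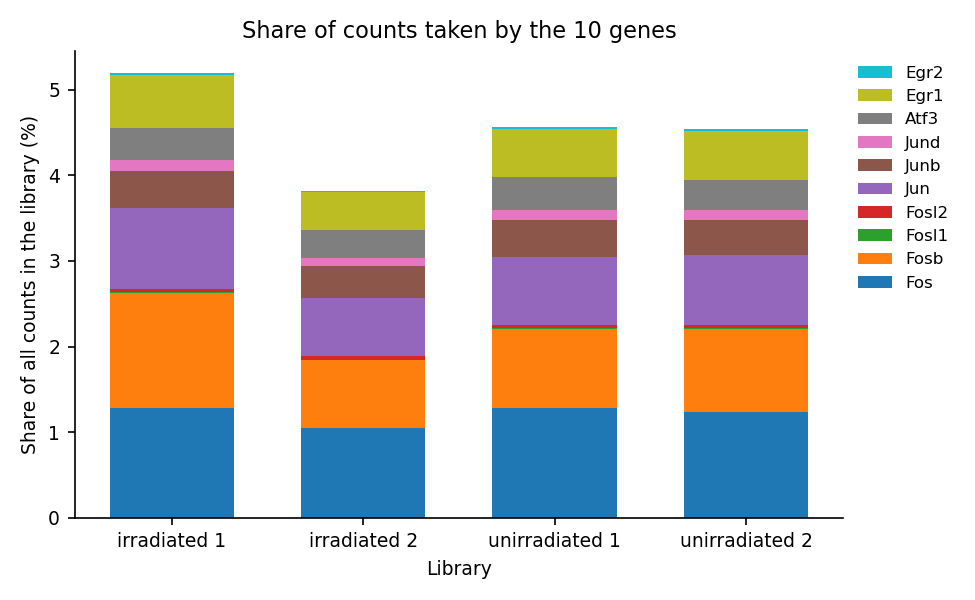
Share of all counts in each library taken by each of the 10 genes, in percent, stacked, with irradiated libraries left of unirradiated ones. The stack reaches 5.19% in irradiated 1 and 3.82% in irradiated 2, against 4.56% and 4.53% in the unirradiated libraries, and Fos, Fosb, Jun and Egr1 make up most of each stack.

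The promoters of 8 members were found in RefSeq (GRCm38.p6), and those of Fosl1 and Egr1 are not shown. The 250 bases before the RefSeq start are shown for 5 genes. These are 3 of the most abundant members and the stress and Egr members Atf3 and Egr2. Each holds a match to a motif of the pathways that drive immediate early genes. For Jun and Atf3 the match is only to a motif added after the sequences were seen. Junb and Fosl2 also held matches and are not shown. The sequences read 5′ to 3′ on the strand of the gene, and capitals mark the motif matches.
Fos: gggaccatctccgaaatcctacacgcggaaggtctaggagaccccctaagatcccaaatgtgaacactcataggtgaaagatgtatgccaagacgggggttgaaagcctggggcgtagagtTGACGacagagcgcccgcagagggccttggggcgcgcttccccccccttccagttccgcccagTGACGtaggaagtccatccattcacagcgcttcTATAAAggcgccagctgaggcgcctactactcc
Fosb: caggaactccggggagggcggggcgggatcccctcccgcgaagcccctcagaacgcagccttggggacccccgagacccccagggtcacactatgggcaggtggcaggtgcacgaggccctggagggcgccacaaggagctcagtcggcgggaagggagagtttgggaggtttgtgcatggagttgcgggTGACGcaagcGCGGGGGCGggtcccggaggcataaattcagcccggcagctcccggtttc
Jun: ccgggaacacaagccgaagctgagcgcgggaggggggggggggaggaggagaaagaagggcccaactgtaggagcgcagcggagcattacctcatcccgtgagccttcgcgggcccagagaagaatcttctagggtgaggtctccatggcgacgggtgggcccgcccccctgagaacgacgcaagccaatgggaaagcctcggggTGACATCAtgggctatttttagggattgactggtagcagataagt
Atf3: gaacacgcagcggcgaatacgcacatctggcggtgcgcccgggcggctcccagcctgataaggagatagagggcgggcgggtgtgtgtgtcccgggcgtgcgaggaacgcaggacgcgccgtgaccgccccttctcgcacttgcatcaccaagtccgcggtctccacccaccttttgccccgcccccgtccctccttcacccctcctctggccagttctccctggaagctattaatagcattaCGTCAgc
Egr2: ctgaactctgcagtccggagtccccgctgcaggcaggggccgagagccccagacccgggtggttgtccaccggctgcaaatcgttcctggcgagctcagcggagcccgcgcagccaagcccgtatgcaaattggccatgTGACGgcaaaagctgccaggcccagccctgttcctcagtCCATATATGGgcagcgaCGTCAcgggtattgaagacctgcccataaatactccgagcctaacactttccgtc
The Fos window is chr12:85473640-85473889 on the plus strand, the Fosb window chr7:19310046-19310295 on the minus strand and the Jun window chr4:95052223-95052472 on the minus strand. The Atf3 window is chr1:191183334-191183583 on the minus strand, and the Egr2 window, the third of 5 RefSeq starts, is chr10:67537619-67537868 on the plus strand. The Atf3 and Egr2 windows lie inside their genes as deposited, downstream of the deposited starts.

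Both strands of every window were searched. Fos held TATAAA from 33 to 28 bases before its start, a match present in 12.4% of 32851 RefSeq windows of the same length. TGACG, the core of the cyclic AMP response element, was in 7 of the 12 member windows, those of Fos, Fosb, Junb, Atf3 and 3 of the 5 of Egr2, against 17.8% of all windows, and the Egr2 windows overlap each other. Jun held TGACATCA, the element through which Jun dimers are known to act on their own gene, from 45 to 38 bases before its start (2.93% of all windows). The CArG box, bound by serum response factor, was in 4 windows of Egr2 and 1.47% of all windows, and the third Egr2 window holds it from 72 to 63 bases before the start. GCGGGGGCG, an EGR binding sequence, was in the windows of Fosb and Fosl2 (2.57% of all). TGACGTCA, TGAGTCA and GCGTGGGCG were in 0 member windows, against 1.55%, 4.46% and 0.536% of all windows. TGACG and TGACATCA were added after the sequences were seen. Matches are descriptions of these windows, and elements farther upstream were outside them.

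Compared per kilobase of the deposited gene length, the level of Fos was the highest, at 4994 ± 719 CPM per kb in irradiated and 5314 ± 174 CPM per kb in unirradiated libraries (SD, n = 2 each). Jun followed, at 2558 ± 588 CPM per kb in irradiated and 2511 ± 2.78 CPM per kb in unirradiated libraries (SD, n = 2 each). Junb, Atf3, Fosb and Egr1 came next, with means over the 4 libraries of 1795, 1661, 1621 and 1226 CPM per kb. Each overlapped its neighbor in range over the libraries. Within a library, Junb stood above Atf3 and Fosb above Egr1 in all 4, and Atf3 stood above Fosb in 3. Jund stood clear of both its neighbors, between 611 and 768 CPM per kb. The places of Jund and Fosl1 in this order are uncertain. Of their exon bases 52.6% and 57.2% are shared with genes on the other strand, and how reads there were counted is not stated. Egr2, Fosl2 and Fosl1 formed the low end, with means of 52.8, 41.9 and 35.6 CPM per kb and overlapping ranges. Egr2 stood above Fosl2 in 3 libraries, and Fosl2 above Fosl1 in all 4. The early Fos genes thus stood far above the late Fos genes in every library.

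Whether radiation changed these levels is the comparison the design sets up. By edgeR's quasi-likelihood test 0 of the 10 genes were higher and 0 lower at an adjusted p under 0.05, as for all 15993 genes, of which 0% were called in each direction. At an unadjusted p under 0.05 the test also held 0 of the 10, against 9.25% of all genes. DESeq2 and limma-voom called 0 of the 10 as well, while DESeq2 called 2.73% of all genes higher and 0.350% lower. With no filter on low counts edgeR called 4.86% of genes higher and 0.381% lower, and with the replicate block 0.0125% higher, again with 0 of the 10. The 10 log2 fold changes ran from -0.09 for Fos to 0.18 for Fosl2, with a median of -0.0073 beside 0.0040 over all tested genes. These values do not show that the groups were alike. Irradiated libraries varied with a biological coefficient of variation of 39.8%, unirradiated ones with 5.93%, and with 2 libraries on each side the smallest p of an exact permutation test is 0.333.

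**Figure D2:**
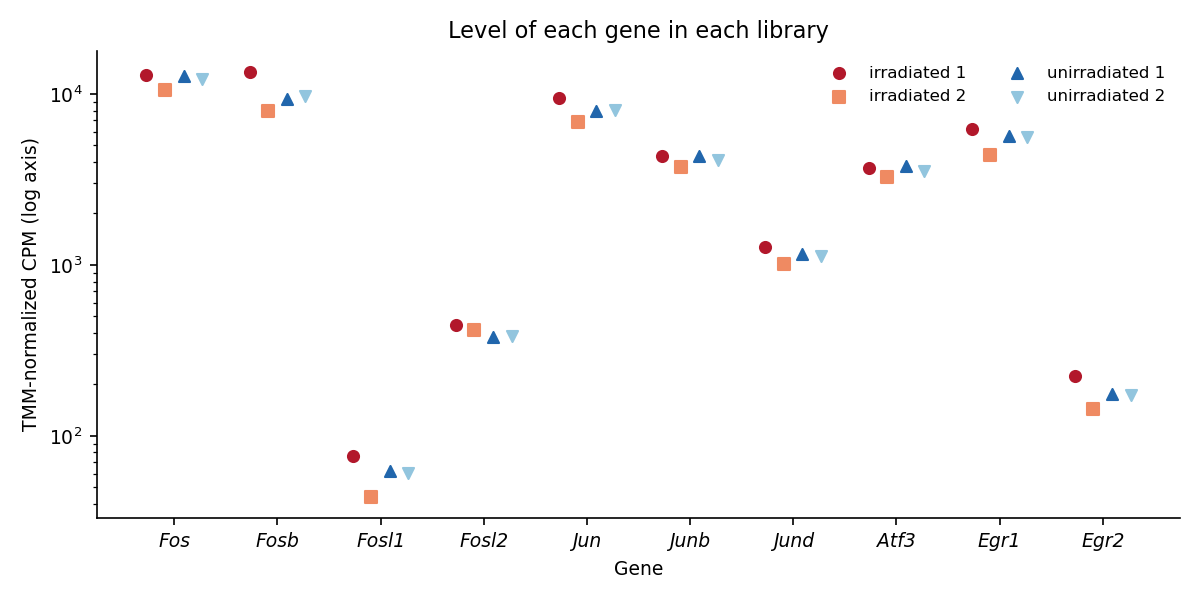
Level of each gene in each library, in TMM-normalized CPM on a log axis, with irradiated libraries left of unirradiated ones for each gene. The levels run from 44.1 CPM for Fosl1 in irradiated 2 to 13450 CPM for Fosb in irradiated 1, and the unirradiated points of a gene nearly coincide while irradiated 1 lies above irradiated 2 for all 10 genes.

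The irradiated libraries instead differed from each other. All 10 genes were higher in irradiated 1 than in irradiated 2, as were 45.5% of all tested genes, and the median log2 difference between those libraries was 0.40 for the 10 genes and -0.0574 for all. For 8 of the 10 genes, all but Fosl2 and Atf3, irradiated 1 lay above both unirradiated libraries and irradiated 2 below both, a layout found in 14.1% of all tested genes and in 19.1% of the 6289 with a mean of at least 30 CPM. A single member, Fosl2, lay above the unirradiated pair in both irradiated libraries, as did 20.3% of all tested genes, and 0 lay below, against 20.0% of all. Between the unirradiated libraries no member differed by more than 0.0867 on the log2 scale. Irradiated 1 stood at 1.06 (Fosl2) to 1.73 (Fosl1) times irradiated 2, and the counting error of a single value was at most 3.48% (Fosl1 in irradiated 2). The gap between the unirradiated libraries was smaller than counting error for Fosl1, Fosl2, Jun and Egr2. The place of Junb in irradiated 1 rests on 4358 CPM in that library against 4315 CPM in unirradiated 1, and it no longer lay above when libraries were scaled without irradiated 2.

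The same split was seen in Dll1 itself, the gene behind the sort, at 146 and 80.2 CPM in irradiated libraries and 130 and 129 CPM in unirradiated ones. The sums of all 6 marker lists of other cell types were instead highest in irradiated 2. In the counts that follow, above or below means that both irradiated libraries lay on that side of the unirradiated pair. All 10 macrophage markers lay above, and they summed to 82.4 and 668 CPM in irradiated libraries and 21.6 and 20.2 CPM in unirradiated ones, and Fcgr1 was at 0 in unirradiated 2. Of 10 endothelial markers 8 lay above, and their sums were 54.9 and 848 CPM in irradiated libraries and 33.3 and 30.4 CPM in unirradiated ones. Of 10 fibroblast markers 7 lay above, with sums of 918 and 6233 CPM in irradiated libraries and 724 and 742 CPM in unirradiated ones. Of 10 lymphocyte markers 7 lay above, summing to 19.3 and 109 CPM in irradiated libraries and 5.53 and 5.01 CPM in unirradiated ones, with Cd3d at 0 in irradiated 1 and unirradiated 2. Neutrophil markers, 6 of 8 above, summed to 12.6 and 113 CPM in irradiated libraries and 5.20 and 8.32 CPM in unirradiated ones, with Ly6g at 0 in all but irradiated 2 and Cxcr2 at 0 in irradiated 1. Of 10 pericyte and smooth muscle markers 3 lay above and 2 below, with sums of 486 and 695 CPM in irradiated libraries and 502 and 514 CPM in unirradiated ones. Of the 10 luminal epithelial markers 2 lay above (Krt19 and Krt7) and 5 below (Epcam, Cldn4, Cldn7, Elf3 and Ehf), with a median log2 fold change of -0.12 and none at 0 in any library. They summed to 11927 and 9636 CPM in irradiated libraries and 11473 and 11054 CPM in unirradiated ones. In such bulk samples fewer cells of a type and less RNA per cell cannot be told apart, and the part of other cells in the values of the 10 genes was not tested.

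Set against the summed counts of the luminal markers, the 10 genes stood at 4.38 and 3.99 counts per luminal marker count in irradiated libraries and 3.98 and 4.07 in unirradiated ones. On this scale irradiated 2 lay within the unirradiated range and irradiated 1 stayed above it. When libraries were scaled by those marker counts, a choice made after seeing the data, 2 members lay above (Fosl2 and Jund) and 1 below (Fos), while 24.4% of all tested genes lay above and 9.74% below, and edgeR still called 0 of the 10.

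**Figure D3:**
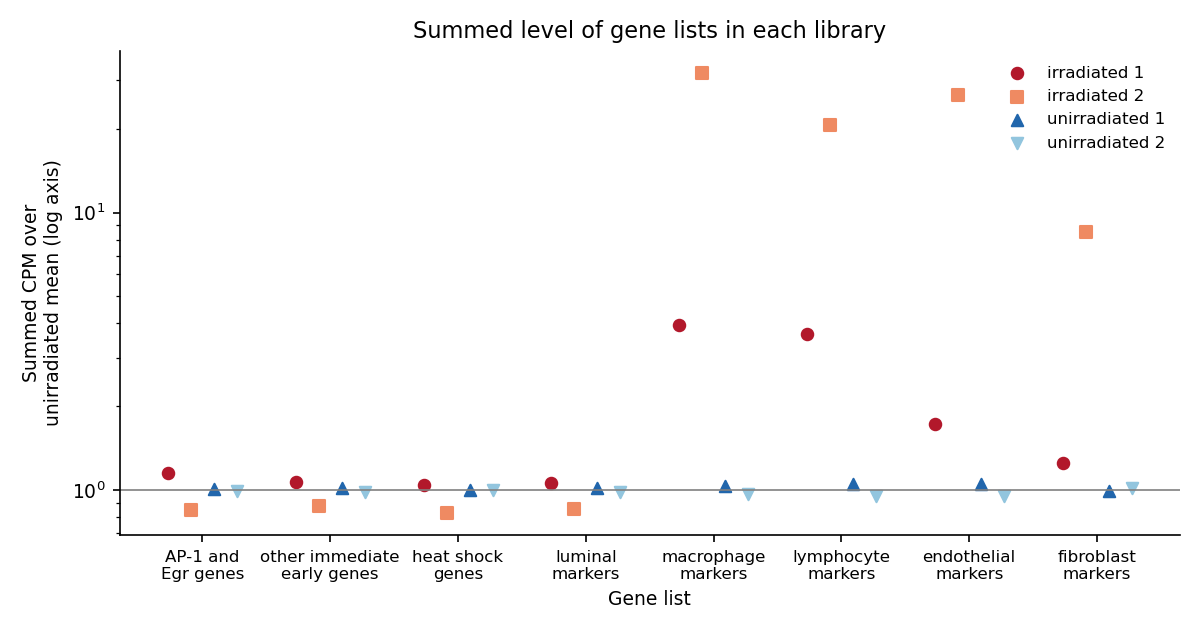
Summed CPM of each gene list in each library, divided by the mean of the unirradiated libraries, on a log axis with irradiated libraries left of unirradiated ones. The 10 AP-1 and Egr genes, the other immediate early genes, the heat shock genes and the luminal markers are lowest in irradiated 2, where the macrophage, lymphocyte, endothelial and fibroblast sums are highest.

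Fos, the founding Fos gene (ENSMUSG00000021250, mm10 chromosome 12 from 85473890 to 85477273), was at 12942 and 10551 CPM in irradiated libraries, against 12788 and 12209 CPM in unirradiated ones. Irradiated 2 was low, and irradiated 1 exceeded the unirradiated libraries by little. The fitted log2 fold change was -0.09 (SE 0.23, edgeR adjusted p = 0.947).

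Fosb (chromosome 7 from 19302696 to 19310051), whose splicing also gives the long-lived truncated form deltaFosB, showed a wider split. It was at 13450 and 8003 CPM in irradiated libraries and 9319 and 9704 CPM in unirradiated ones, so that irradiated 1 stood apart on the high side. The log2 fold change was 0.17 (SE 0.31, edgeR adjusted p = 0.915). Within a library, the ratio of Fosb to Fos counts was 1.04 and 0.759 in irradiated libraries, against 0.729 and 0.795 in unirradiated ones, so the high ratio belonged to irradiated 1 alone. The counts do not separate the splice forms.

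Fosl1, which encodes Fra-1, a Fos protein linked to invasion in breast cancer cells (chromosome 19 from 5447703 to 5455945), was the least abundant member. Its values were 76.5 and 44.1 CPM in irradiated libraries and 62.0 and 60.7 CPM in unirradiated ones, and irradiated 1 was 1.73 times irradiated 2, the widest such ratio of the 10. The log2 fold change was -0.0234 (SE 0.27, edgeR adjusted p = 0.989). In GENCODE M21, 57.2% of Fosl1 exon bases are shared with Ccdc85b on the other strand, at 33.6 and 42.1 CPM in irradiated libraries and 38.0 and 37.4 CPM in unirradiated ones. Strand is lost in the non-directional kit, which leaves the level of Fosl1 uncertain.

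Fosl2, which encodes Fra-2 (chromosome 5 from 32135801 to 32157842), was at 443 and 419 CPM in irradiated libraries and 380 and 382 CPM in unirradiated ones. It was the one member whose groups did not overlap. The irradiated pair was on the high side, as for 20.3% of all tested genes. Its log2 fold change was 0.18 (SE 0.12), with the smallest adjusted p of the 10 (edgeR, 0.740). It was positive in all 13 alternative fits, which reuse these libraries and so add no independent support. With irradiated 1 alone against the unirradiated pair the value was 0.20, and with irradiated 2 alone 0.12. The ratio of Fosl1 to Fosl2 counts was 0.173 and 0.105 in irradiated libraries, against 0.163 and 0.159 in unirradiated ones.

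**Figure D4:**
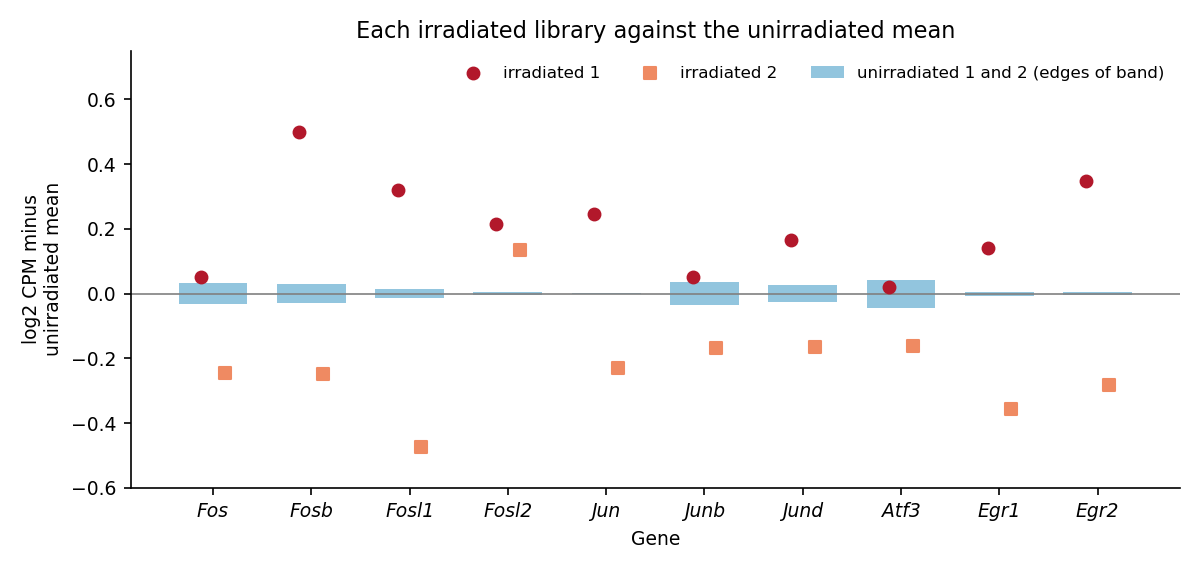
Difference of each irradiated library from the mean of the unirradiated libraries, in log2 CPM, for each gene, with a band whose edges are the unirradiated libraries. Irradiated 1 (circles) lies at 0.50 for Fosb and at 0.02 for Atf3, irradiated 2 (squares) lies below the band for 9 genes, and Fosl2 is the one gene with both points above it.

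Jun, the main DNA-binding partner of Fos proteins (chromosome 4 from 95049034 to 95052222), was at 9485 and 6832 CPM in irradiated libraries and 8001 and 8014 CPM in unirradiated ones. The unirradiated values lay at -0.00226 from each other on the log2 scale (unirradiated 1 minus unirradiated 2), and irradiated libraries fell on both sides of them. The log2 fold change was 0.0270 (SE 0.25, edgeR adjusted p = 0.987). Jun shares 7.28% of its exon bases with the antisense gene Junos, at 7.21 and 5.44 CPM in irradiated libraries and 5.73 and 6.07 CPM in unirradiated ones.

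Junb, which can oppose Jun at some targets (chromosome 8 from 84974484 to 84978718), was at 4358 and 3746 CPM in irradiated libraries and 4315 and 4102 CPM in unirradiated ones, a narrower split. The count ratio of Junb to Jun was 0.459 and 0.548 in irradiated libraries, against 0.539 and 0.512 in unirradiated ones. Jund (chromosome 8 from 70698949 to 70700616) was at 1281 and 1019 CPM in irradiated libraries and 1163 and 1122 CPM in unirradiated ones. The log2 fold change was -0.0546 (SE 0.19) for Junb and 0.0088 (SE 0.18) for Jund, with edgeR adjusted p of 0.962 and 0.992. Of Jund exon bases 52.6% are shared with the antisense gene Gm11175, listed at 0 in all 4 libraries, which leaves the level of Jund uncertain, and 7.52% of Junb exon bases are shared with Prdx2.

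Atf3, a stress-induced ATF family gene whose product pairs with Jun proteins (chromosome 1 from 191170296 to 191218039), was at 3713 and 3272 CPM in irradiated libraries and 3775 and 3555 CPM in unirradiated ones. Irradiated 1 lay between the unirradiated libraries and irradiated 2 below them. The log2 fold change was -0.0694 (SE 0.18, edgeR adjusted p = 0.947).

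Egr1, a zinc finger regulator of growth and stress programs, was at 6241 and 4423 CPM in irradiated libraries and 5685 and 5637 CPM in unirradiated ones. Irradiated 2 was the outlying library, at -0.36 from the unirradiated mean on the log2 scale against 0.14 for irradiated 1. Egr2 (chromosome 10 from 67535475 to 67542188), best known for its role in myelination and in lymphocytes, was at 223 and 144 CPM in irradiated libraries and 176 and 175 CPM in unirradiated ones, and irradiated libraries lay on either side at 0.35 and -0.28. The log2 fold changes were -0.0863 (SE 0.24) and 0.0671 (SE 0.22), with edgeR adjusted p of 0.951 for Egr1 and 0.959 for Egr2.

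The direction of most members thus hung on which irradiated library was used. Without irradiated 1 edgeR called Fosl1, Egr1 and Egr2 lower, with 7.95% of all tested genes called lower and 15.9% higher. Without irradiated 2 it called Fosb, Fosl1 and Egr2 higher, with 11.9% of all genes called higher and 13.9% lower. Fosl1 and Egr2 were thus called in opposite directions, with log2 fold changes of -0.49 and 0.31 for Fosl1 and of -0.30 and 0.33 for Egr2. Each of these fits assumes that the lone irradiated library varies like the unirradiated pair.

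Related gene lists were read in the same fit, beside all tested genes, of which 20.3% lay above and 20.0% below, 9.25% had an unadjusted p under 0.05, and DESeq2 called 2.73% higher and 0.350% lower. Of 28 other immediate early genes 5 lay above and 6 below, edgeR called 0 (1 at an unadjusted p under 0.05), and the median log2 fold change was 0.0432. Klf2, a flow- and growth-responsive zinc finger gene, was at 381 and 347 CPM in irradiated libraries and 278 and 263 CPM in unirradiated ones, and it was the one gene of the list that DESeq2 called (adjusted p = 0.0467, against 0.491 by edgeR). Klf4 was at 1092 and 723 CPM in irradiated libraries and 644 and 626 CPM in unirradiated ones. Phlda1 was at 813 and 656 CPM in irradiated libraries and 915 and 861 CPM in unirradiated ones. The list as a whole summed to 36972 and 30235 CPM in irradiated libraries and 35215 and 34030 CPM in unirradiated ones, with the same order of libraries as the 10 members.

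Of 11 heat shock genes 0 lay above and 4 below (Hspa8, Dnajb1, Hspe1 and Hspd1), edgeR and DESeq2 called 0, none had an unadjusted p under 0.05 and the median was -0.11. Hspd1, a mitochondrial chaperonin gene, was at 583 and 489.7 CPM in irradiated libraries and 669 CPM in each unirradiated one. Hspe1, its partner, was at 436 and 379 CPM in irradiated libraries and 484 and 462 CPM in unirradiated ones. Dnajb1 was at 2575 and 2309 CPM in irradiated libraries and 2955 and 2785 CPM in unirradiated ones. The luminal marker sum was lowest in irradiated 2 as well.

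Of 15 other bZIP partner genes 4 lay above (Batf2, Jdp2, Maf and Nfe2l2) and 1 below (Atf7), edgeR and DESeq2 called 0, 3 had an unadjusted p under 0.05 and the median was 0.17. Jdp2, whose product represses AP-1 sites as a Jun partner, was at 52.0 and 48.5 CPM in irradiated libraries and 35.7 and 36.3 CPM in unirradiated ones (log2 fold change 0.48, SE 0.11, edgeR adjusted p = 0.489). Nfe2l2, which encodes the antioxidant regulator Nrf2, was at 90.0 and 99.95 CPM in irradiated libraries and 77.8 and 76.1 CPM in unirradiated ones. Batf2, an interferon-induced partner, was at 5.45 and 4.26 CPM in irradiated libraries and 2.41 and 2.77 CPM in unirradiated ones.

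Of 21 upstream SRF, TCF, CREB and MAPK genes 4 lay above and 3 below, edgeR and DESeq2 called 0, 2 had an unadjusted p under 0.05 and the median was 0.0212. Mkl1, a cofactor of serum response factor, was at 50.2 and 54.5 CPM in irradiated libraries and 38.6 and 42.1 CPM in unirradiated ones. Rps6ka5, which encodes the kinase MSK1, was at 10.8 and 10.9 CPM in irradiated libraries and 15.8 and 15.4 CPM in unirradiated ones. The ETS factor gene Elk3 was at 32.8 and 59.3 CPM in irradiated libraries and 26.6 and 28.1 CPM in unirradiated ones. Elk3 was highest in irradiated 2, as were the sums of every marker list of other cell types, whose part was not tested.

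Of 14 MAPK and EGR feedback genes 5 lay above and 3 below, edgeR and DESeq2 called 0, 2 had an unadjusted p under 0.05 and the median was 0.0178. Dusp4, which encodes a nuclear MAPK phosphatase, was at 75.6 and 62.9 CPM in irradiated libraries and 44.7 and 47.6 CPM in unirradiated ones (log2 fold change 0.59, SE 0.13, edgeR adjusted p = 0.489). Dusp10 was at 21.6 and 18.3 CPM in irradiated libraries and 14.6 and 14.9 CPM in unirradiated ones. Dusp2, a phosphatase gene, was at 5.30 and 59.1 CPM in irradiated libraries and 3.03 and 2.12 CPM in unirradiated ones. Its high value was in irradiated 2, where the sums of every marker list of other cell types were highest, and their part was not tested.

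Genes known as AP-1 targets include proteases and cytokines. Of 18 listed targets 9 lay above and 0 below (20.3% and 20.0% of all tested genes), and the median log2 fold change of the 17 tested was 0.95. The list was chosen with earlier results of these data known, so its excess over these shares is no independent result about AP-1 targets. edgeR called 0 of them (8 at an unadjusted p under 0.05, against 9.25% of all), and DESeq2 called 6, all higher, among them Mmp9, Plau, Plaur, Ptgs2 and Ccl2. Plau, the urokinase gene, was at 49.8 and 73.9 CPM in irradiated libraries and 20.7 and 19.6 CPM in unirradiated ones (log2 fold change 1.62, SE 0.22, edgeR adjusted p = 0.489), and its receptor gene Plaur had a log2 fold change of 1.04 (SE 0.13). The median log2 difference of the list was 0.51 in irradiated 1 and 0.96 in irradiated 2. The list sum, in which abundant genes weigh most, was 1753 and 1452 CPM in irradiated libraries and 1262 and 1299 CPM in unirradiated ones. Plaur was higher in irradiated 1, at 48.2 CPM against 43.6 CPM in irradiated 2, and Plau was higher in irradiated 2. In irradiated 2 the sums of every marker list of other cell types were highest. The part of other cells in these values was not tested.

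Of 10 Egr1 targets 5 lay above and 0 below (20.3% and 20.0% of all tested genes), edgeR called 0 (3 at an unadjusted p under 0.05, against 9.25% of all), DESeq2 called Pdgfb and the median was 0.29. This list, too, was chosen with earlier results of these data known. Pdgfb, a platelet-derived growth factor gene, was at 111 and 82.1 CPM in irradiated libraries and 56.3 and 56.1 CPM in unirradiated ones (log2 fold change 0.78, SE 0.17, edgeR adjusted p = 0.489). Pdgfa was at 38.2 and 31.5 CPM in irradiated libraries and 27.2 and 25.9 CPM in unirradiated ones. Fn1, the fibronectin gene, was at 122 and 790.5 CPM in irradiated libraries and 96.2 and 103 CPM in unirradiated ones. The high value of Fn1 was in irradiated 2, as were the highest sums of every marker list of other cell types, whose part was not tested.

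**Figure D5:**
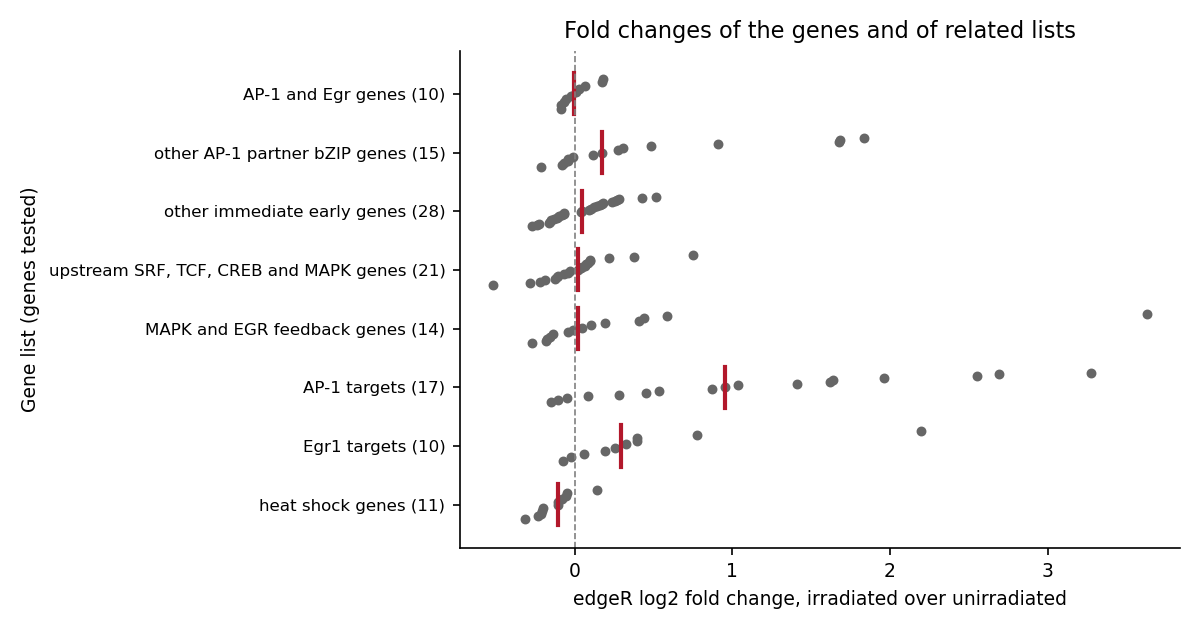
edgeR log2 fold change of each tested gene (points), irradiated over unirradiated, by gene list, with the list median (vertical bar) and the median of all tested genes (dashed line). The 10 AP-1 and Egr genes lie between -0.09 and 0.18, and the median of the AP-1 targets is 0.95. The lists were chosen with earlier results of these data known.

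The genes nearest to a member in their profile over the 4 libraries were sought by Euclidean distance between centered log2 CPM values among 9918 tested genes with a mean log2 CPM of at least 3. For Egr1 these were Klf6, Ubald1 and Tob1, at distances of 0.0191, 0.0277 and 0.0309, and Klf6, another immediate early gene, was at 4348 and 3077 CPM in irradiated libraries and 3992 and 3986 CPM in unirradiated ones. For Jun they were Ip6k2, Cuedc1 and Trim11, at 0.0232, 0.0258 and 0.0271. For Fos they were Neu1, Lamb3 and Nat10, at 0.0255, 0.0266 and 0.0271. For Fosl1 they were Pcsk4, Tfap2c and Mlxipl, at 0.0584, 0.0593 and 0.0622. Among the members themselves Junb was nearest to Fos, at 0.0665, and Egr2 to Fosl1, at 0.159. Over 4 libraries many genes share a profile, as 78 of the 9918 lay nearer to Fos than Junb did.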

How the data were processed

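Poly(A) RNA of 2 irradiated and 2 unirradiated libraries was sequenced with a non-directional kit, per the labels' protocols. The deposited tables give each gene's raw count, name, mm10 position and length, as the authors made them. The submitters' processing notes name STAR 2.5, HTSeq 0.6.1, DESeq2 and mm10, and how reads on overlapping genes were counted is not stated there. Total counts were 19931303 and 18903631 in irradiated and 20817997 and 16811888 in unirradiated libraries. The table of all 4 libraries matched the other 3 deposited tables at all 54532 genes. Positions of 9 of the 10 members equal those of GENCODE M21, and those of Fosl1 do not.

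Tests ran on the counts in edgeR 4.0.16 under R 4.3.3 (filterByExpr with a minimum count of 10 and a minimum total of 15, TMM scaling, quasi-likelihood test, two-sided, Benjamini-Hochberg adjustment over all tested genes, threshold 0.05). Log2 CPM used a prior count of 2, with SDs from 2 libraries a group. Differences of single irradiated libraries are taken from the unirradiated mean on that scale. Alternatives were other scalings, filters, a block on replicate number, leaving out each library, DESeq2 1.42.0 and limma-voom (limma 3.58.1). Only the main edgeR fit, DESeq2 and limma-voom were checked on simulated data. Intervals and SEs cover these libraries only. The members and lists were chosen with earlier results of these data known. Named genes are the 10 members, the 3 genes of each related list with the smallest edgeR p, the 3 nearest profiles of Fos, Fosl1, Jun and Egr1 (no predicted symbols), and Dll1. Other genes were named after their values were seen. One gene that this rule names is not reported here.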

Additional observations from a re-analysis of the deposited data

How the results depend on the processing

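In all alternatives that kept the 4 libraries, edgeR, DESeq2 and limma-voom called 0 of the 10 members. Without one library the members called ranged from 0 to 3 higher and from 0 to 3 lower, those above both unirradiated libraries from 1 to 8 and those below both from 0 to 9. The 8 above came without irradiated 2, when 41.0% of all tested genes lay above and 42.9% below, and the 9 below without irradiated 1, when 40.3% lay above and 39.8% below. Luminal marker scaling, added after seeing the data, gave 2 above and 1 below. It turned Fosl1 to 0.0145, Junb to 0.0134 and Atf3 to 0.00058 on the log2 scale, all near 0. Jund turned to -0.0042 with library size alone, -0.0052 with no filter, -0.00036 with the replicate block and -0.00082 with limma-voom. With one library left out the log2 fold change ranged from -0.26 to 0.0368 for Fos, -0.26 to 0.49 for Fosb, -0.49 to 0.31 for Fosl1, -0.24 to 0.23 for Jun, -0.18 to 0.0369 for Junb, -0.18 to 0.15 for Jund, -0.18 to 0.0055 for Atf3, -0.37 to 0.13 for Egr1, -0.30 to 0.33 for Egr2 and -0.71 to 0.16 for Dll1. The cause was not tested.

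Over all genes the calls were 1338 higher and 105 lower with no filter, 437 and 56 with DESeq2, and from 0 to 2713 higher and 0 to 2355 lower without one library. With the replicate block 2 genes were called higher. Same-numbered libraries deviated from their group means with a correlation of -0.0992. Because the unirradiated libraries differed so little (coefficient of variation 5.93%), that correlation cannot decide whether the numbers pair the libraries. With no filter 10 AP-1 targets, 2 Egr1 targets, 2 feedback genes, 1 bZIP partner and 1 upstream gene were called, and with DESeq2 6 AP-1 targets, 1 Egr1 target and 1 other immediate early gene. Without one library the calls ranged from 0 to 13 AP-1 targets, 0 to 5 Egr1 targets, 0 to 7 feedback genes, 0 to 7 bZIP partners, 0 to 6 upstream genes, 0 to 14 other immediate early genes and 0 to 8 heat shock genes. Counting error was at most 3.48% of a member's value.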
